A study of Mus musculus with 9 samples.

Results

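The 9 genes described here encode dual specificity phosphatases that act on MAP kinases: Dusp1, Dusp2, Dusp4, Dusp5, Dusp6, Dusp8, Dusp10, Dusp14 and Dusp16. They were taken by symbol from a deposited table of 15343 genes, and all 9 were found and passed the filter on low values that left 13895 genes for testing. The libraries came from primary mouse intraperitoneal macrophages that the labels call WT, of a strain written CF7B1/6. All were stimulated with lipopolysaccharide (LPS, a bacterial cell wall component that activates Toll-like receptor 4) at 100 ng/ml for 6 hours. The LPS group, LPS 1 to LPS 3, lists no pretreatment. The DHA + LPS group, DHA 1 to DHA 3, first received 100 µM docosahexaenoic acid (DHA, an omega-3 fatty acid) for 1 hour, and the cpdA + LPS group, cpdA 1 to cpdA 3, first received 10 µM of compound A (cpdA) for 1 hour. Compound A is the agonist of Gpr120, a receptor for long-chain fatty acids, that the series is about. Libraries without LPS were not analysed here, so what LPS itself did to these genes is not described. The labels give 3 replicates per group and no age, pooling or source animal, so p-values measure the spread between these libraries, which may be technical.

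MAP kinases (ERK, JNK and p38) are switched on by phosphorylation of a threonine and a tyrosine in their activation loop. The phosphatases of this family remove both phosphates and so end the signal, and several of their genes are themselves switched on by the kinases, which makes a feedback loop. In macrophages, Toll-like receptor signals induce several of these genes, and Dusp1 is the member best known for holding back cytokine production after LPS.

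Upstream sequence is shown for Dusp1, Dusp5 and Dusp8, the 3 members whose proximal promoters held a match to the full cAMP response element (CRE) or to the CArG box, which serum response factor binds. Each line gives the 250 bases before the annotated start in 5′ to 3′ direction of the gene, from RefSeq on GRCm38.p6: Dusp1 at chr17:26508473-26508722 on the minus strand, Dusp5 at chr19:53528895-53529144 on the plus strand, and Dusp8 at chr7:142095285-142095534 on the minus strand. Capitals mark matches to the CRE (TGACGTCA), its shorter core (TGACG on either strand) and the CArG box.
Dusp1: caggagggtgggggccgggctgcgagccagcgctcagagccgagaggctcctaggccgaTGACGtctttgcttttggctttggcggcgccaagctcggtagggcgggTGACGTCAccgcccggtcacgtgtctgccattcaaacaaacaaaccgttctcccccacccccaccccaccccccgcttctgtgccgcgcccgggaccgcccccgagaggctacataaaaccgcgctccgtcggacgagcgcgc
Dusp5: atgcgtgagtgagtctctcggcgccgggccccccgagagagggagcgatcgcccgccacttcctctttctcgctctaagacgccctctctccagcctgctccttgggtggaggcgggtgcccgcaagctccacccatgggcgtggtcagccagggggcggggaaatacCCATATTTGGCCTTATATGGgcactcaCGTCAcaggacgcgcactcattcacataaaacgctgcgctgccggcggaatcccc
Dusp8: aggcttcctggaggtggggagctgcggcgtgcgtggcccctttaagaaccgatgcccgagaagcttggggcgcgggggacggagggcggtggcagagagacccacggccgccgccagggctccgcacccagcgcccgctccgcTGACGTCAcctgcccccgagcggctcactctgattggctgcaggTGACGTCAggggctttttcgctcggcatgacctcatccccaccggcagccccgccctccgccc
The Dusp1 window held 1 CRE, from 143 to 136 bases before the start, which contains 2 of its 3 core matches. The Dusp8 window held 2 CREs, at 107 to 100 and 63 to 56 bases before the start. The Dusp5 window held 2 adjoining CArG boxes, at 82 to 73 and 72 to 63 bases before the start, and 1 CRE core. Of 32851 RefSeq promoter windows of the same length, 1.55% held at least 1 CRE and 0.0304% at least 2, 17.8% held the core, and 1.47% held a CArG box and 0.0183% at least 2. Promoter entries were matched for 8 of the 9 members. Dusp4 had no entry, so its promoter was not searched. Among the other 5 windows, that of Dusp16 held 1 CRE core, that of Dusp2 held 1 E-box (CACGTG, in 6.02% of windows), and the Dusp1 window also held 1 E-box. None of the 8 held the AP-1 motif (TGANTCA, in 6.75% of windows) or the TATA motif (TATAAA on the strand of the gene, in 7.59%). The motifs were chosen with the sequences in view, a match is only a run of letters, and it was not tested whether any protein bound there.

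The members fell into a higher and a lower range of expression. Per kilobase of exon, Dusp2 averaged 638 ± 105 normalized counts in the LPS group (SD, n = 3), Dusp4 339 ± 199, Dusp1 330 ± 169, Dusp6 219 ± 38.6 and Dusp16 156 ± 7.91. The lower range held Dusp10 at 28.6 ± 10.4, Dusp5 at 27.9 ± 9.55, Dusp8 at 16.8 ± 5.85 and Dusp14 at 14.4 ± 2.57 normalized counts per kilobase. In the LPS group, neighbours in this order overlapped between Dusp4 and Dusp1, Dusp1 and Dusp6, Dusp10 and Dusp5, and Dusp8 and Dusp14. The libraries of Dusp16 and Dusp10 stood apart in all 3 groups, which is the gap between the ranges: the lowest Dusp16 library, cpdA 3, held 76.7 and the highest Dusp10 library, LPS 3, held 39.9. With DHA + LPS, Dusp2 (539 ± 90.8) and Dusp4 (520 ± 112) overlapped, and with cpdA + LPS so did Dusp4 (514 ± 146) and Dusp2 (508 ± 208), with Dusp1 at 314 ± 31.0 overlapping Dusp2. Exon lengths came from another annotation than the counts may have used, so levels per kilobase between genes are approximate.

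**Figure D1:**
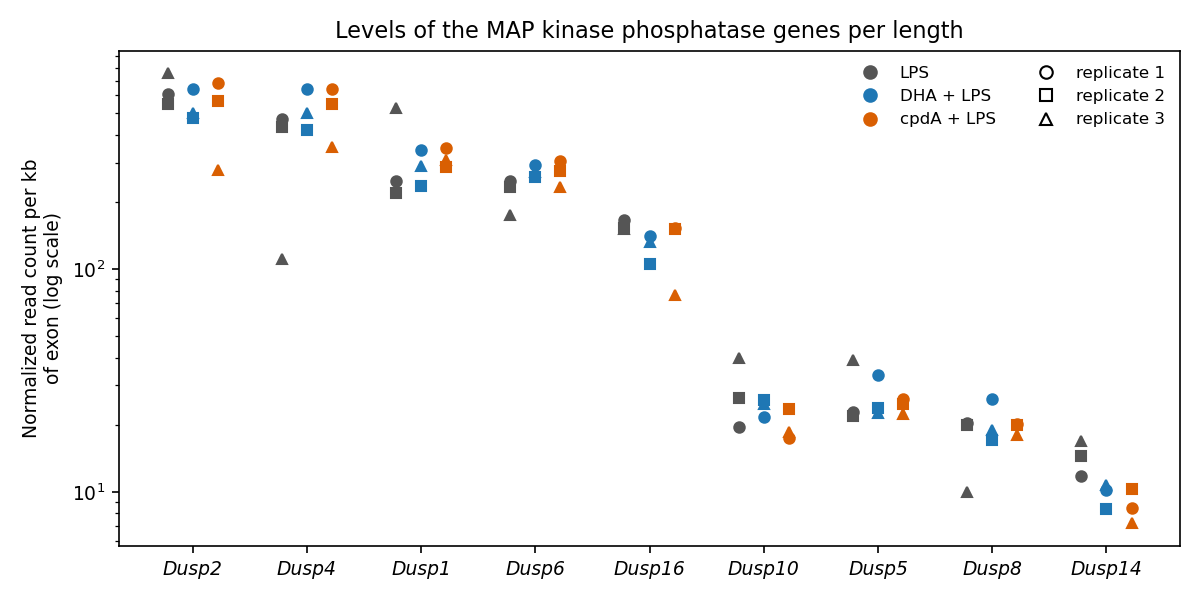
Normalized read count per kilobase of exon (log scale) for the 9 phosphatase genes, in the order of their means in the LPS group. Each point is 1 library, colour gives the group and shape the replicate number. Dusp2, Dusp4, Dusp1, Dusp6 and Dusp16 lie above 76 in every library, and Dusp10, Dusp5, Dusp8 and Dusp14 lie below 40 in every library.

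Across the series, recovered reads ran from 13797079 (DHA 1) to 37572822 (cpdA 2) per library. LPS 3 and cpdA 3 stood apart from the rest of their groups, on the second and the first principal component (28.8% and 40.5% of variance). The libraries DHA 1 and cpdA 1, of different groups, differed by 1.27 times sampling noise, less than any pair within a group (lowest 1.65 times, LPS 1 and LPS 2). Whether these 2 libraries share cells or RNA, or carry the right labels, was not tested. Unless they are left out, log2 values of cpdA against DHA rest on both, and those of each comparison with LPS on 1 of them. In the test of all 9 libraries below, intervals and p-values use the spread of all 9 libraries in every comparison. The macrophage marker list (10 of 10 found) summed to between 560949 and 586576 normalized counts in 7 libraries, against 323106 in LPS 3 and 385859 in cpdA 3. Lyz2 made up most of that sum and of its drop, with 210386 in LPS 3 and 269049 in cpdA 3 against 447053 to 459826 in the other 7 libraries. The other macrophage markers went different ways. Itgam held 6345 and 6967 in these 2 libraries against 7940 to 9234 in the rest. Adgre1, Cd14 and Timd4 were also lower in both than in the other libraries of their groups. Cd68 held 38110 and 37490 against 33306 to 37223 in the rest. Csf1r was highest in cpdA 3 (21816), Mertk in LPS 3 (10615) and Gata6 in cpdA 3 (406). The list's median log2 difference from the other libraries of the group was -0.19 for LPS 3 and -0.33 for cpdA 3. Of markers of other cells, those of mesothelium, fibroblasts and endothelium (8 of 8 found) were the highest, at 21127 to 33106 in the LPS group, 22773 to 25202 with DHA + LPS and 22444 to 26292 with cpdA + LPS. The collagen genes Col1a1, Col1a2 and Col3a1 carried most of that sum. B cell markers (6 of 6) summed to 255 to 314, 186 to 230 and 235 to 325 in the same order of groups. Mast cell and eosinophil markers (6 of 8) summed to 329 to 402, 227 to 272 and 243 to 444, and neutrophil markers (3 of 8) to 228 to 394, 417 to 503 and 139 to 506. T and NK cell markers (3 of 8) summed to 51.2 to 68.6, 80.2 to 92.4 and 51.6 to 76.2, and monocyte and dendritic cell markers (6 of 7) to 350 to 409, 339 to 381 and 306 to 333. For 5 noncoding RNAs, chosen to reflect RNA quality, the median log2 difference was 0.63 for LPS 3 and 0.62 for cpdA 3 from the other libraries of their groups. Of these, Neat1 held 46514 normalized counts in cpdA 3 against 7382 to 15888 in the other 8 libraries, and Kcnq1ot1 held 5155 in LPS 3 against 1892 to 3220 in the rest. Cr2 and Cd209a stayed under 10 normalized counts in all 9 libraries. In such bulk RNA, fewer cells of a type and less RNA per cell cannot be told apart. The part of these differences between libraries in the phosphatase values was not tested, so each comparison is also given without LPS 3 and cpdA 3, a choice made after seeing the data.

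No phosphatase gene passed the test in any of the 3 comparisons. With limma on log2(normalized count + 1) over all 9 libraries and Benjamini-Hochberg adjustment over 13895 genes, 0 of 9 members were called at an adjusted p under 0.05 for DHA + LPS against LPS, where 0.00720% of all genes were called. The same held for cpdA + LPS against LPS (0 of 9, against 0.00720%) and for cpdA + LPS against DHA + LPS (0 of 9, against 0%). The 1 gene called in both comparisons with LPS was Cpt1a, which imports fatty acids into mitochondria. Its log2 change was 1.08 (limma adjusted p = 0.0358) with DHA and 1.17 (limma adjusted p = 0.0183) with cpdA; it is named after its values were seen, and neither call was made with the replicate number as a block. At an unadjusted p under 0.05, 1 of 9 members stood out for DHA (Dusp6; background 14.2%), 1 of 9 for cpdA (Dusp14; background 14.6%) and 0 of 9 for cpdA against DHA (background 1.02%). edgeR and DESeq2 on the recovered reads also called 0 of 9 members in each comparison, and so did limma without DHA 1 and cpdA 1. Of all 13895 genes, edgeR called 3, 1 and 0 in the order of comparisons above, and DESeq2 315, 391 and 0. That limma fit called 0 genes in both comparisons with LPS. At these shares, 0 of 9 does not set the members apart from other genes. The median log2 change over the 9 members was -0.09 for DHA, beside -0.0007 over all genes, with 3 values above 0 and 6 below. For cpdA the median was -0.14, beside -0.0043 over all genes, with 4 above 0 and 5 below. Both medians changed sign without LPS 3 and cpdA 3: 0.08 for DHA, with 6 above 0 and 3 below, and 0.10 for cpdA, with 5 above and 4 below (all genes -0.0077 and -0.0016). These 2 comparisons share the LPS libraries, so that their values are not independent of each other. The smallest adjusted p that any member reached in any of 23 settings was 0.0981, for Dusp16 with DHA without LPS 3 and cpdA 3 (limma).

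**Figure D2:**
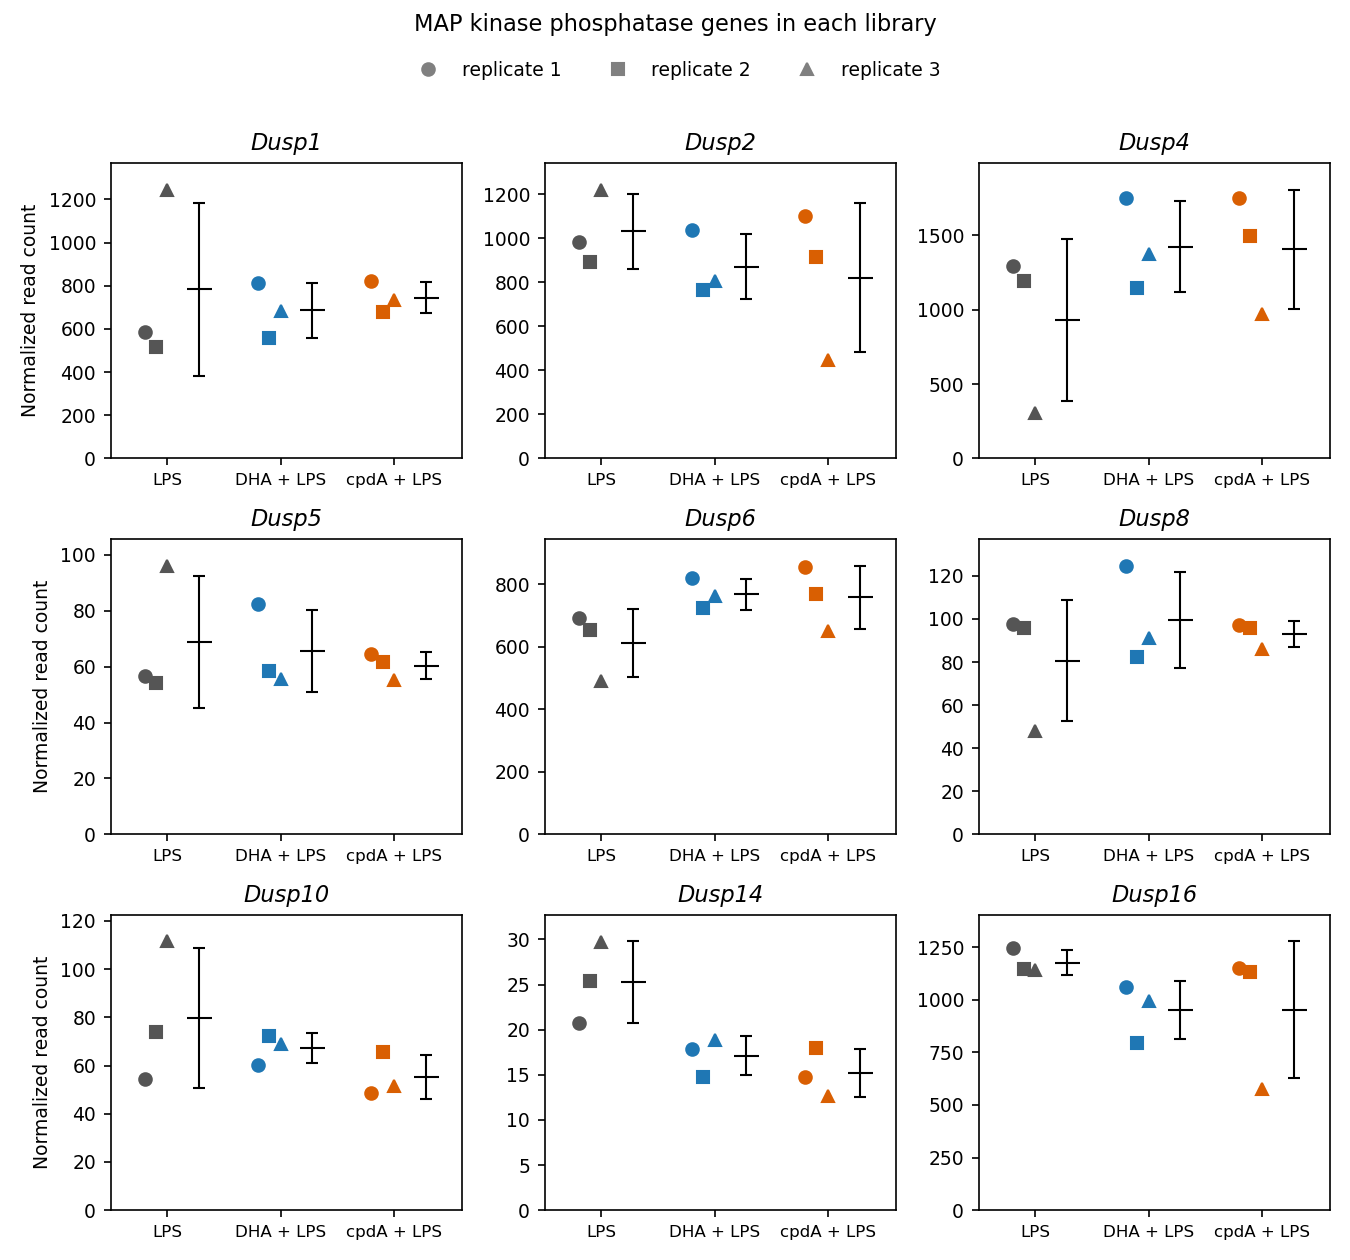
Normalized read count (linear axis from 0) of each phosphatase gene in the 9 libraries. Points are libraries with the replicate number as shape, and the bar beside each group is its mean ± SD (n = 3). LPS 3 is the highest library for Dusp1 at 1245 and the lowest for Dusp4 at 304, and cpdA 3 is the lowest for Dusp2 at 447 and for Dusp16 at 577.

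Dusp1 (Entrez 19252) encodes a nuclear phosphatase, also called MKP-1, that acts chiefly on p38 and JNK. It held 586, 517 and 1245 normalized counts in LPS 1 to 3, 814, 558 and 684 in DHA 1 to 3, and 824, 679 and 733 in cpdA 1 to 3. Both other groups lay inside the range that the LPS libraries spanned, and LPS 3 was the highest library of all 9. The log2 change was -0.09 with DHA (95% interval -0.77 to 0.58, limma adjusted p = 0.911) and 0.04 with cpdA (-0.63 to 0.71, adjusted p = 0.968). Without LPS 3 and cpdA 3 it was 0.30 with DHA (-0.03 to 0.63, limma adjusted p = 0.258), a change of sign, and 0.44 with cpdA (0.08 to 0.80, adjusted p = 0.294).

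Dusp2 (Entrez 13537), or PAC-1, is a nuclear phosphatase that is abundant in activated immune cells. It held 984, 891 and 1221 normalized counts in LPS 1 to 3, 1039, 767 and 807 in DHA 1 to 3, and 1100, 917 and 447 in cpdA 1 to 3. The 3 groups overlapped, and cpdA 3 was the lowest library. Dusp2 had a log2 change of -0.24 with DHA (95% interval -0.92 to 0.44, limma adjusted p = 0.739) and -0.41 with cpdA (-1.09 to 0.27, adjusted p = 0.551). Leaving out LPS 3 and cpdA 3 gave -0.12 with DHA and 0.10 with cpdA.

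Dusp4 (Entrez 319520), or MKP-2, is a nuclear phosphatase that acts on ERK, JNK and p38. It held 1295, 1190 and 304 normalized counts in LPS 1 to 3, 1754, 1146 and 1373 in DHA 1 to 3, and 1755, 1498 and 969 in cpdA 1 to 3. It had the widest spread of the members, with a coefficient of variation of 35.4% over the 9 libraries, and LPS 3 lay far under all others. With DHA the log2 change of Dusp4 was 0.85 (95% interval -0.28 to 1.99, limma adjusted p = 0.456) and 0.81 with cpdA (-0.32 to 1.95, adjusted p = 0.479). Leaving out LPS 3 and cpdA 3 gave 0.18 (adjusted p = 0.550) and 0.39 (adjusted p = 0.426, limma). Both values were smaller over these 7 libraries.

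Dusp5 (Entrez 240672) and Dusp6 (Entrez 67603) encode the members that are selective for ERK, Dusp5 in the nucleus and Dusp6, or MKP-3, in the cytoplasm. Dusp5 held 56.5, 54.2 and 96.2 normalized counts in LPS 1 to 3, 82.5, 58.6 and 55.6 in DHA 1 to 3, and 64.5, 61.5 and 55.2 in cpdA 1 to 3. The groups overlapped, and LPS 3 and DHA 1 were the high libraries. For Dusp5 the log2 change was -0.04 with DHA (95% interval -0.63 to 0.54, limma adjusted p = 0.951) and -0.14 with cpdA (-0.73 to 0.44, adjusted p = 0.841). Both changed sign over the 7 libraries without LPS 3 and cpdA 3, to 0.22 and 0.18 (limma adjusted p = 0.595 and 0.856). Dusp6 held 692, 653 and 489 in LPS 1 to 3, 820, 723 and 761 in DHA 1 to 3, and 854, 770 and 652 in cpdA 1 to 3. All 3 DHA libraries lay above all 3 LPS libraries, while cpdA 3 lay just under LPS 2. Dusp6 was the 1 member of 9 that stood wholly above LPS with DHA, where 13.0% of all genes did; 0 of 9 did so with cpdA, where 10.7% of all genes did. Its log2 change was 0.34 with DHA (0.01 to 0.68, limma adjusted p = 0.347) and 0.32 with cpdA (-0.02 to 0.65, adjusted p = 0.361), a ratio of 1.27 (1.00 to 1.60) and 1.25 (0.988 to 1.57). In the 7 libraries left without LPS 3 and cpdA 3 it was 0.19 with DHA (limma adjusted p = 0.245) and 0.27 with cpdA (adjusted p = 0.301). Dusp6 also had the lowest coefficient of variation of the members, 15.3% over the 9 libraries.

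Dusp8 (Entrez 18218), Dusp10 (Entrez 63953) and Dusp16 (Entrez 70686) encode phosphatases that prefer JNK and p38; Dusp10 is also called MKP-5 and Dusp16 MKP-7. Dusp8 held 97.8, 95.6 and 48.1 normalized counts in LPS 1 to 3, 125, 82.3 and 91.3 in DHA 1 to 3, and 97.3, 95.9 and 86.0 in cpdA 1 to 3. LPS 3 was the lowest library, and the groups overlapped. Dusp8 had a log2 change of 0.35 with DHA (95% interval -0.29 to 0.99, limma adjusted p = 0.590) and 0.27 with cpdA (-0.37 to 0.91, adjusted p = 0.689), and 0.02 and -0.0014 without LPS 3 and cpdA 3. Dusp10 held 54.3, 73.8 and 112 in LPS 1 to 3, 60.2, 72.2 and 69.0 in DHA 1 to 3, and 48.7, 65.6 and 51.6 in cpdA 1 to 3. The groups overlapped with LPS 3 on top. Dusp10 had a log2 change of -0.19 with DHA (-0.79 to 0.41, limma adjusted p = 0.771) and -0.47 with cpdA (-1.07 to 0.12, adjusted p = 0.432). Over the 7 libraries without LPS 3 and cpdA 3 these were 0.08 and -0.16 (limma adjusted p = 0.871 and 0.881). Dusp16 held 1246, 1144 and 1141 in LPS 1 to 3, 1061, 795 and 995 in DHA 1 to 3, and 1149, 1131 and 577 in cpdA 1 to 3. All 3 DHA libraries lay under all 3 LPS libraries, while cpdA 1 lay above LPS 2 and cpdA 3 was the lowest of the 9. The log2 change was -0.32 with DHA (-0.87 to 0.24, limma adjusted p = 0.568) and -0.37 with cpdA (-0.93 to 0.18, adjusted p = 0.504). Without LPS 3 and cpdA 3 the DHA value kept its size at -0.34 with a narrower interval (-0.59 to -0.09, limma adjusted p = 0.0981), and the cpdA value was -0.07 (adjusted p = 0.907). With only the 6 libraries of DHA + LPS and LPS in the fit, the DHA interval was also narrower (-0.59 to -0.04, limma adjusted p = 0.202).

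Dusp14 (Entrez 56405) encodes a small family member, also called MKP-6, that lacks the kinase-docking domain of the others. It was the least read member, with 8 to 29 reads per library. It held 20.7, 25.4 and 29.7 normalized counts in LPS 1 to 3, 17.8, 14.7 and 18.9 in DHA 1 to 3, and 14.8, 18.0 and 12.7 in cpdA 1 to 3. Both pretreated groups lay wholly under the LPS group, with DHA 3 (18.9) close to LPS 1 (20.7). Dusp14 and Dusp16 were the 2 members of 9 wholly below LPS with DHA, where 15.0% of all genes were, and Dusp14 was the 1 member wholly below with cpdA, where 12.2% of all genes were. The log2 change was -0.53 with DHA (95% interval -1.13 to 0.08, limma adjusted p = 0.401) and -0.70 with cpdA (-1.30 to -0.09, adjusted p = 0.289). The 8 reads of DHA 1 have an exact Poisson interval of 3.45 to 15.8, and the 29 reads of LPS 3 one of 19.4 to 41.6, so that counting error alone is wide for this gene; such intervals cover counting error only. Over the other 7 libraries the values were -0.41 and -0.47 (limma adjusted p = 0.491 and 0.707).

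No phosphatase gene passed the test between the receptor agonist and the fatty acid. For cpdA + LPS against DHA + LPS, 0 of 9 members stood wholly above (3.04% of all genes did) and 0 of 9 wholly below (2.61% did), and limma adjusted p was 0.9999 for each. The narrowest interval of the log2 difference was that of Dusp6, -0.36 to 0.31 around -0.02, and the widest that of Dusp4, -1.17 to 1.10 around -0.04. For Dusp1 it was 0.13 (-0.54 to 0.80), for Dusp16 -0.05 (-0.61 to 0.50) and for Dusp10 -0.28 (-0.88 to 0.31). The Dusp16 value without LPS 3 and cpdA 3 was 0.27 (0.02 to 0.52, limma adjusted p = 0.754). Without DHA 1 and cpdA 1, the closely similar pair, the 9 values ran from -0.30 (Dusp2) to 0.19 (Dusp1). The median of the 9 was -0.07 with all libraries, with 1 above 0 and 8 below, and 0.08 without LPS 3 and cpdA 3, with 5 above and 4 below. Over all genes the median was -0.015 with all libraries, with 45.4% of values above 0. Without LPS 3 and cpdA 3 it was 0.017, with 54.3% above 0. The compounds were given at different doses, 100 µM and 10 µM, so these intervals describe the 2 treatments as given. An interval that includes 0 does not show that they act alike.

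Across all genes, leaving out LPS 3 and cpdA 3 raised the share called by limma to 6.79% for DHA and 1.60% for cpdA against LPS, and left it at 0% for cpdA against DHA, while the members called stayed at 0 of 9 in each. At an unadjusted p under 0.05 the members were 1 of 9 for DHA (Dusp16; background 23.2%), 3 of 9 for cpdA (Dusp1, Dusp4 and Dusp6; background 11.7%) and 1 of 9 for cpdA against DHA (Dusp16; background 5.04%).

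**Figure D3:**
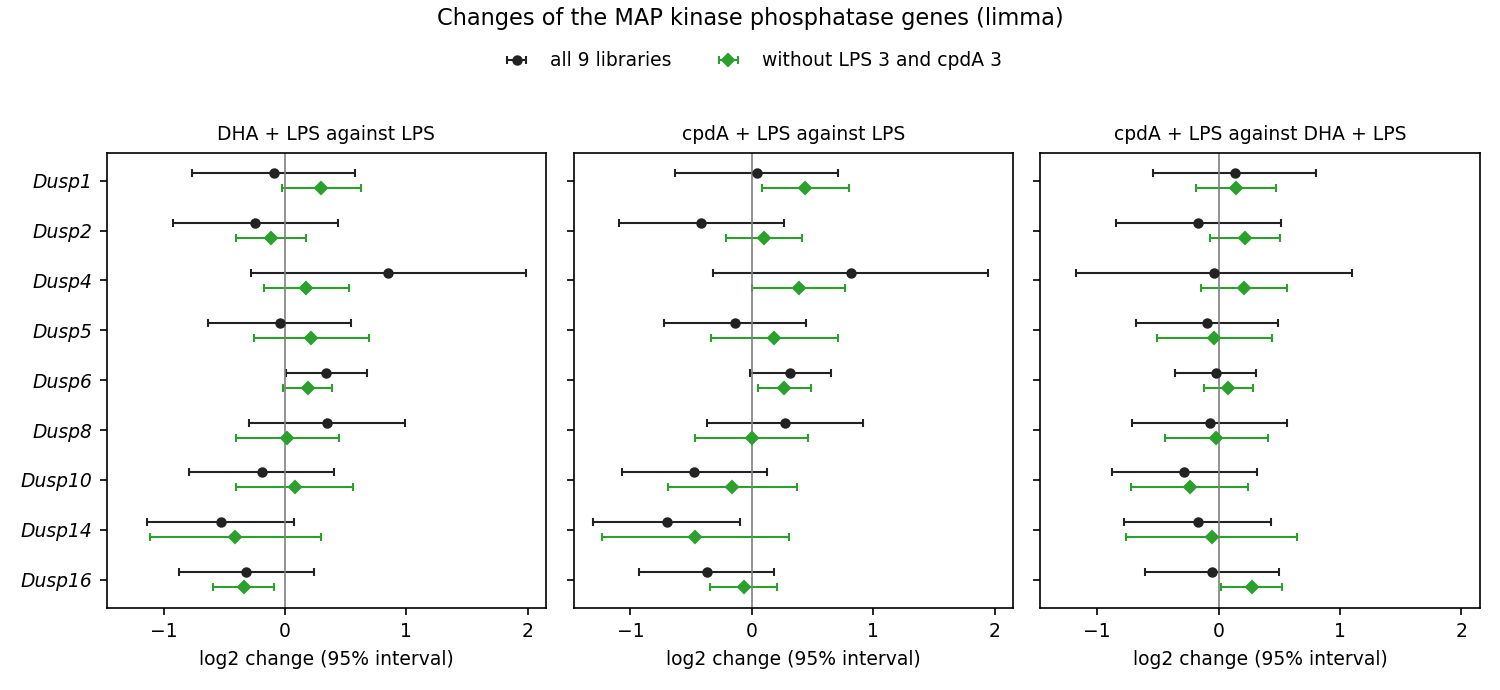
Log2 changes of the 9 phosphatase genes from limma, with 95% intervals, for the 3 comparisons. Black circles use all 9 libraries and green diamonds leave out LPS 3 and cpdA 3. With all 9 libraries the interval of Dusp4 with DHA runs from -0.28 to 1.99; without those 2 libraries it runs from -0.18 to 0.53.

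In LPS 3, Dusp1, Dusp4, Dusp5, Dusp6, Dusp8 and Dusp10 differed from their group's other libraries by more than the mean changes between groups. So did Dusp2, Dusp5 and Dusp16 in cpdA 3. Set against the mean of LPS 1 and LPS 2 on the log2 scale, LPS 3 was at -2.03 for Dusp4, a ratio of 0.245, and only 1.17% of the 13895 genes lay as far or farther in that library. Dusp1 lay at 1.18 in LPS 3, a ratio of 2.26 (5.51% of genes as far), and Dusp8 at -0.99, a ratio of 0.503 (8.23%). Dusp10 (0.81) and Dusp5 (0.79) were also higher in LPS 3, Dusp6 (-0.46) was lower, and Dusp16 was at -0.07. The members thus went both ways in LPS 3, with Dusp1, Dusp5 and Dusp10 high where Dusp4, Dusp6 and Dusp8 were low. In cpdA 3, set against cpdA 1 and cpdA 2, all 9 values were below 0. Dusp2 lay at -1.17 (a ratio of 0.446, 9.83% of genes as far), Dusp16 at -0.98 (0.507, 13.8%) and Dusp4 at -0.74 (0.598, 21.6%). The other 6 members lay between -0.34 and -0.03. These are differences of single libraries, with no test. The macrophage markers went different ways in the same 2 libraries, set against the others of their groups. Lyz2, Itgam, Adgre1, Cd14 and Timd4 were lower in both. Cd68 and Gata6 were higher in both, Mertk and Icam2 were higher in LPS 3 only, and Csf1r was higher in cpdA 3 only. The part of such differences in these values was not tested.

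**Figure D4:**
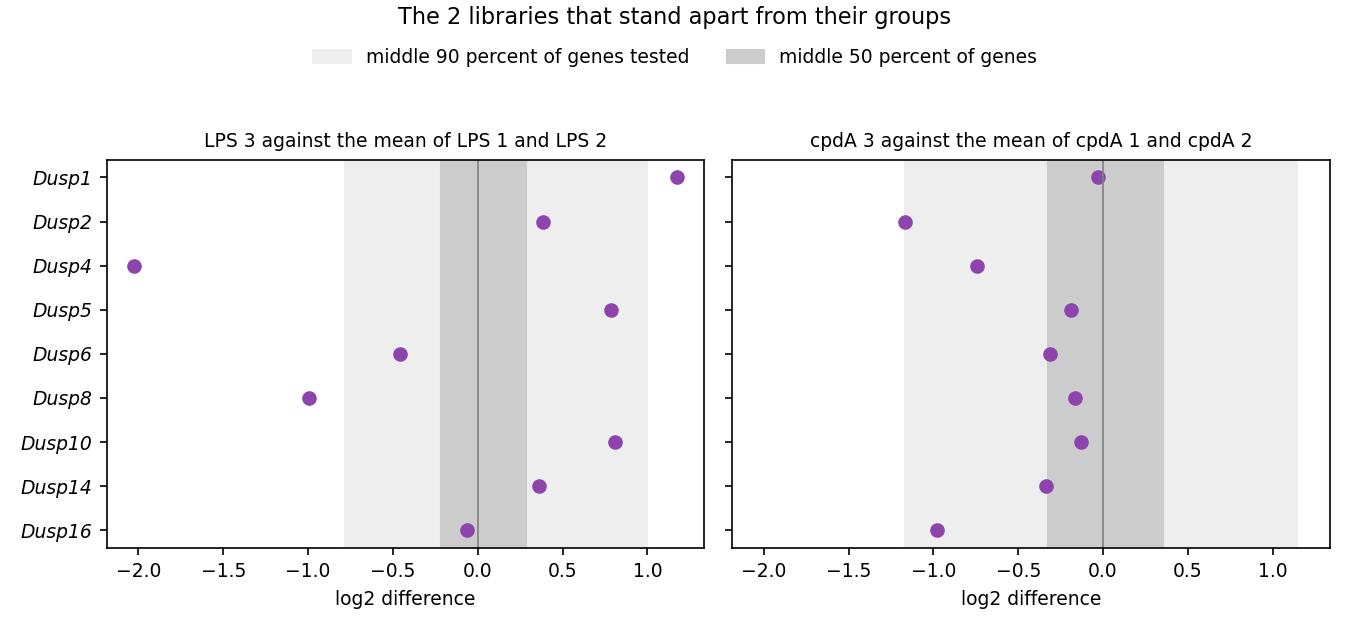
Log2 difference of LPS 3 from the mean of LPS 1 and LPS 2 (left) and of cpdA 3 from the mean of cpdA 1 and cpdA 2 (right) for each phosphatase gene. The grey bands hold the middle 50% and the middle 90% of the 13895 genes tested. In LPS 3, Dusp4 (-2.03), Dusp8 (-0.99) and Dusp1 (1.18) lie outside the wider band; in cpdA 3, all 9 members lie inside it.

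Correlations among members over the 9 libraries follow the same 2 libraries in part. They are descriptions with no p, over libraries that share treatments and include LPS 3 and cpdA 3. Of 36 pairs, 21 had a Pearson r of log2(normalized count + 1) above 0 over 9 libraries and 23 over the 7 without LPS 3 and cpdA 3, and the sign differed between the 2 sets for 18 pairs. Dusp4 and Dusp6 had r = 0.958 over 9 libraries and 0.897 over 7, and Dusp4 and Dusp8 0.951 and 0.711. Dusp2 and Dusp16 had 0.910 and 0.723, and Dusp1 and Dusp5 0.860 and 0.750. The pairing of Dusp1 with the ERK phosphatase Dusp6 turned from -0.412 over 9 libraries to 0.966 over 7, and that of Dusp1 with Dusp4 from -0.608 to 0.966. Of all tested genes, those whose pattern was among the 3 closest to a member over the 9 libraries were Dlg4 for Dusp1 (r = 0.967), Oasl1 for Dusp2 (0.991), Ankrd33b for Dusp4 (0.996) and Cryab for Dusp5 (0.961). For the rest they were Sqstm1 for Dusp6 (0.984), Srfbp1 for Dusp8 (0.994), Gm16630 for Dusp10 (0.965) and Ran for Dusp16 (0.994). The others named by the same search were Unc13d and Samd11 for Dusp1, Tmem184b for Dusp2, Hvcn1 and Tmem120b for Dusp4, Tmub1 and Mttp for Dusp5, Pacsin2 and Atp2a2 for Dusp6, Slc13a3 and Tmem79 for Dusp8, Copg2 and Cenpl for Dusp10, and Snn and Zdhhc5 for Dusp16. Dusp14, under a mean of 50 normalized counts, was left out of this search.

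The rest of the phosphatases' pathway was read from 10 gene lists with 118 tested genes in all. With all 9 libraries limma called none of them in any comparison, and 19, 22 and 1 had an unadjusted p under 0.05 for DHA against LPS, cpdA against LPS and cpdA against DHA, where 14.2%, 14.6% and 1.02% of all genes did. edgeR also called none. DESeq2 called Mapk14, Per2 and Zfp36l2 higher with DHA, and Mapk14, Per1, Per2 and Zfp36l2 higher and Ccl2 lower with cpdA. Of the 118 list genes, DESeq2 thus called 3 with DHA, and 4 higher and 1 lower with cpdA. Of all 13895 genes it called 315 with DHA and 391 with cpdA. Without LPS 3 and cpdA 3 limma called 12 (7 higher, 5 lower), 6 (4 higher, 2 lower) and 0 of the 118, where 6.79%, 1.60% and 0% of all genes were called. The values below are from all 9 libraries unless said, with up to 2 genes named per list by the smallest p, and list medians are of log2 changes.

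Of the substrates, 10 of 14 MAP kinase genes were tested, with medians of -0.05 for DHA and 0.03 for cpdA. Mapk14, which encodes p38α, held 2650, 2760 and 1969 normalized counts in LPS 1 to 3, 4184, 3322 and 4011 in DHA 1 to 3, and 4252, 3779 and 3857 in cpdA 1 to 3. For Mapk14 all 6 pretreated libraries lay above the 3 LPS libraries, as did 13.0% of all genes with DHA and 10.7% with cpdA. Its log2 change was 0.65 with DHA (limma adjusted p = 0.201) and 0.70 with cpdA (adjusted p = 0.180), and without LPS 3 and cpdA 3 it rose by 0.50 (adjusted p = 0.0179) and 0.57 (adjusted p = 0.0316). Mapk6, the atypical kinase ERK3, was at -0.43 and -0.54 (limma adjusted p = 0.347 and 0.255). Without those 2 libraries it fell by 0.37 with DHA (limma adjusted p = 0.0285) and was at -0.25 with cpdA (adjusted p = 0.327). Among 19 of 20 tested kinases upstream (medians 0.04 and 0.03), Map3k3 was at 0.29 and 0.28 (limma adjusted p = 0.296 and 0.288) and Map3k2 at 0.35 with DHA (0.318). Among 10 kinases activated by MAP kinases (medians 0.07 and 0.16), Rps6ka4, or MSK2, was at -0.37 and -0.31 (limma adjusted p = 0.372 and 0.432), Mknk1 at 0.22 with DHA and Rps6ka1 at 0.23 with cpdA (0.426 and 0.450).

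The 15 other dual specificity phosphatase genes found of 20 had medians of 0.09 for DHA and 0.12 for cpdA, with 11 of 15 values above 0 in each; over all genes 49.9% and 49.4% of values were above 0. Dusp28 was at -0.50 and -0.62 (limma adjusted p = 0.359 and 0.278), Dusp3, also called VHR, at 0.39 with DHA (0.401) and Dusp23 at 0.25 with cpdA (0.395). All 12 inhibitors of receptor to ERK signalling were tested, with medians of 0.05 and 0.13. Spry2 was at 0.47 with DHA and 0.42 with cpdA (limma adjusted p = 0.267 and 0.263), Errfi1 at -0.45 with DHA (0.264) and Spred1 at -0.43 with cpdA (0.355). Of the immediate early and ERK-responsive transcription factors, 18 of 19 were tested (medians 0.03 and 0.09). Elk3 was at 0.34 and 0.35 (limma adjusted p = 0.247 and 0.224), Elk1 at 0.28 with DHA (0.327) and Myc at 0.52 with cpdA (0.231). Without LPS 3 and cpdA 3, Fos (0.81), Jun (0.64) and Egr2 (0.40) rose and Ier3 (-0.55) fell with DHA (limma adjusted p = 0.0252, 0.00994, 0.0286 and 0.0336).

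Dusp1 is known to restrain inflammatory genes in macrophages given LPS, and all 12 genes of that list were tested. With DHA 5 values were above 0 and 7 below, with a median of -0.08, and with cpdA 2 were above and 10 below, with a median of -0.81. Against the other libraries of the same group, the list's median was -0.93 for LPS 3 and -2.52 for cpdA 3, where Dusp1 itself lay at 1.18 and -0.03. Without those 2 libraries the medians were -0.35 with DHA (1 above, 11 below) and -0.11 with cpdA (3 above, 9 below), and for cpdA against DHA the median went from -0.60 to 0.24. Ccl2, a chemokine for monocytes, held 38433, 37413 and 34516 normalized counts in LPS 1 to 3, 18242, 14347 and 16774 in DHA 1 to 3, and 18402, 20556 and 5727 in cpdA 1 to 3. For Ccl2 all pretreated libraries lay under all LPS libraries, as did 15.0% of all genes with DHA and 12.2% with cpdA. Its log2 change was -1.17 with DHA (limma adjusted p = 0.293) and -1.51 with cpdA (adjusted p = 0.224), and without LPS 3 and cpdA 3 it fell by 1.21 (adjusted p = 0.000298) and 0.96 (adjusted p = 0.00430). Il10 was at -1.90 and -1.83 (limma adjusted p = 0.273 and 0.252), with 118 normalized counts in LPS 3 against 25.0 and 35.7 in LPS 1 and LPS 2. Without the 2 libraries Nos2 also fell in both comparisons, by 1.05 and 0.73 (limma adjusted p = 0.000485 and 0.0106), and Il6 fell by 0.66 with DHA (adjusted p = 0.0119).

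The proteins that bind AU-rich mRNAs, some of them controlled by p38, were 8 genes with medians of -0.13 and -0.06. Zfp36l2 was at 0.72 with DHA and 0.77 with cpdA (limma adjusted p = 0.214 and 0.198), and without LPS 3 and cpdA 3 it rose by 0.50 and 0.49 (adjusted p = 0.00397 and 0.0149). Zfp36, or tristetraprolin, was at -0.55 and -0.57 (limma adjusted p = 0.365 and 0.344). Dusp1 is also a known target of cAMP signalling through CREB and of the glucocorticoid receptor. Of 9 tested genes of the first kind (medians 0.14 and 0.08), Per2 held 35.9, 32.3 and 49.1 normalized counts in LPS 1 to 3, 103, 111 and 116 in DHA 1 to 3, and 80.4, 112 and 205 in cpdA 1 to 3. Its log2 change was 1.48 and 1.65 (limma adjusted p = 0.194 and 0.161), and without LPS 3 and cpdA 3 it rose by 1.66 and 1.45 (adjusted p = 0.000951 and 0.00664). Per1, on both lists, was at 0.66 and 0.85 (limma adjusted p = 0.261 and 0.208) and without those libraries rose by 0.74 and 0.71 (adjusted p = 0.0108 and 0.0448). Of 6 tested genes of the glucocorticoid receptor (medians 0.40 and 0.45), Sgk1 was at 0.76 and 0.78 (limma adjusted p = 0.317 and 0.291), with LPS 3 at 5451 normalized counts against 12963 and 13065 in LPS 1 and LPS 2.

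Other named list values moved by over 1.5 times without LPS 3 and cpdA 3, and none of the following was called in either fit. Zfp36 was then at -0.31 with DHA and -0.10 with cpdA, and Sgk1 at 0.34 and 0.40. Il10 was at -1.26 and -0.82. With cpdA, Dusp28 was at -0.31, Rps6ka4 at -0.18, Rps6ka1 at 0.06, Spred1 at -0.12 and Myc at 0.34.

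For cpdA against DHA all named list genes had a limma adjusted p of 0.9999, and their log2 differences are given as values. Spred2 (0.41), Errfi1 (0.26), Myc (0.32), Mapk11 (0.34) and Nr4a1 (0.65) were wholly above DHA in the cpdA libraries, as were 3.04% of all genes. The named genes were picked by the smallest p of each list, so their number cannot be set against that share. Dusp12 (0.17), Dusp23 (0.16), Mapk12 (0.40), Map3k14 (0.24), Rps6ka2 (0.27), Rps6ka3 (-0.21), Egr3 (0.41), Khsrp (0.10), Tia1 (0.18), Fkbp5 (0.13) and Per1 (0.19) overlapped. Il6 (-2.00), Il1b (-1.45) and Nr4a3 (-0.69) overlapped too, with cpdA 3 far under the other cpdA libraries (126 normalized counts of Il6 against 10418 and 12593). Without LPS 3 and cpdA 3 the values of Il6, Il1b, Nr4a3, Tia1 and Per1 changed sign. Those of Dusp23 (0.05), Mapk12 (0.17), Map3k14 (0.10), Rps6ka2 (0.11), Rps6ka3 (-0.04) and Khsrp (0.01) were smaller, and that of Egr3 (0.69) was larger.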

How the data were processed

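RNA was measured in 9 libraries, 3 per group, and groups were taken from the labels. The authors deposited 1 table of signal per gene, which is the read count divided by a size factor per library. Per the submitters' processing notes, CASAVA 1.8.2, Bowtie2, DESeq and mm9 were used; the counting program, annotation and strandedness were not given in any source used here, and the growth and extract protocols in the labels describe another kind of experiment. Reads were recovered from the steps of the values: of the values below 1000, 99.917% to 100% in each library were whole multiples within 0.05.

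A gene was kept where 3 or more libraries held 10 or more normalized counts (13895 of 15343). The main test was limma 3.58.1 in R 4.3.3 (trend and robust) on log2(value + 1) over all 9 libraries, with Benjamini-Hochberg adjustment over all kept genes and a threshold of 0.05. A log2 change is on the log2(value + 1) scale, which understates changes of low genes. edgeR 4.0.16 and DESeq2 1.42.0 were run on the recovered reads. Other alternatives were pseudocounts of 0.5 and 8, filters, scaling, single comparisons alone, a replicate block and leaving out libraries. The scripts were tested on simulated counts with the same spread setting for all genes and no library set apart as LPS 3 and cpdA 3 were. That test does not show how the fits behave with such libraries. Exon lengths were the union of exons in GENCODE M21, and promoters came from RefSeq GRCm38.p6, used for letters only since the reads were placed on mm9.

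The members and all gene lists were chosen with earlier results of these data known. All 9 members are named. From each pathway list, genes called with 9 libraries were to be named, at most 4 per comparison, or else the 2 with the smallest p. Some genes that these rules choose are not reported here. Cpt1a, Fos, Jun, Egr2, Ier3 and Nos2 were named after their values were seen. For LPS and cpdA, libraries with the same replicate number deviated together from their group means (r = 0.387, 0.234 and 0.437). So did LPS 2 with cpdA 1 (0.292) and LPS 1 with cpdA 2 (0.264), so these values cannot show pairing. Same-number values were 0.140, -0.065 and 0.020 for LPS and DHA, and 0.407, -0.345 and 0.013 for DHA and cpdA.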

Additional observations from a re-analysis of the deposited data

How the results depend on the processing

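Over 22 alternative settings, the 27 member values (9 genes in 3 comparisons) gave 591 alternative values, of which 553 kept their direction, 38 reversed it and 0 passed the threshold. DESeq2 gave no adjusted p for Dusp14 in cpdA against LPS. Other scalings moved the libraries by at most 0.030 on the log2 scale. For DHA against LPS, values reversed without LPS 3 and cpdA 3 (Dusp1 0.30, Dusp5 0.22 and Dusp10 0.079), without DHA 2 (Dusp1 0.046, Dusp5 0.025) and without DHA 3 (Dusp5 0.062). For cpdA against LPS that setting gave Dusp2 0.10, Dusp5 0.18 and Dusp8 -0.0014, and Dusp1 was at -0.066 by edgeR, -0.069 by DESeq2 and -0.035 without DHA 1 and cpdA 1. For cpdA against DHA, leaving out LPS 3 and cpdA 3 gave Dusp2 0.22, Dusp4 0.21, Dusp6 0.080, Dusp16 0.27, Tia1 -0.036, Il6 0.17, Il1b 0.20, Nr4a3 0.38 and Per1 -0.035. Leaving out DHA 1 and cpdA 1 gave Dusp5 0.029, Dusp8 0.066 and Egr3 -0.32, and Dusp16 was at 0.0023 by edgeR and 0.0020 by DESeq2.

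Leaving out 1 library at a time, Dusp1 ran from -0.33 to 0.30 for DHA, -0.20 to 0.43 for cpdA and -0.0067 to 0.26 for cpdA against DHA. Dusp5 ran from -0.22 to 0.22, -0.29 to 0.12 and -0.20 to 0.077 in the same order, Dusp10 from -0.43 to 0.079 for DHA and Dusp8 from -0.057 to 0.45 for cpdA. For cpdA against DHA the ranges were -0.43 to 0.22 (Dusp2), -0.22 to 0.21 (Dusp4), -0.11 to 0.080 (Dusp6), -0.20 to 0.099 (Dusp8), -0.22 to 0.27 (Dusp16), -0.036 to 0.31 (Tia1), -3.15 to 0.17 (Il6), -2.28 to 0.20 (Il1b), -1.27 to 0.38 (Nr4a3) and -0.035 to 0.39 (Per1).

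Counts of all genes called moved more. For DHA, 1 gene became 3 with a filter of 50, 3 with TMM, 3 by edgeR, 315 by DESeq2, 9 with only the 6 libraries compared, 943 without LPS 3 and cpdA 3, 0 without trend and robust fitting, 0 without DHA 1 and cpdA 1, and 0 to 373 without 1 library. For cpdA, 1 gene became 391 by DESeq2, 222 without LPS 3 and cpdA 3, 0 without trend and robust fitting, 0 with only the 6 libraries, 0 without DHA 1 and cpdA 1, and 0 to 3 without 1 library. With the replicate block, 0 genes were called for DHA and 0 for cpdA, and no member's call differed. Whether the shared replicate numbers mark pairing is not known. The causes of these moves were not tested. Leaving out LPS 3 and cpdA 3, or DHA 1 and cpdA 1, was chosen after seeing the data. Depth limits Dusp14 most.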

Other observations

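The values here were chosen after they were seen and carry no test. Spry1, which encodes an inhibitor of receptor to ERK signalling, held 145, 179 and 2.0 normalized counts in LPS 1 to 3, 221, 147 and 155 in DHA 1 to 3, and 201, 182 and 9.1 in cpdA 1 to 3. LPS 3 and cpdA 3 were thus far under the other 7 libraries, at -5.75 and -4.25 on the log2 scale against their group's other libraries. Its relative Spry2 stood between 113 and 191 in all 9 libraries. Il17rd, another inhibitor of that pathway, was low in cpdA 3 alone, at 55.2 against 313 and 293 in cpdA 1 and cpdA 2. Tsc22d3, which encodes the glucocorticoid-induced leucine zipper, held 180, 212 and 278 in LPS 1 to 3, 221, 1220 and 678 in DHA 1 to 3, and 269, 255 and 1339 in cpdA 1 to 3, so that its high libraries were DHA 2, DHA 3 and cpdA 3.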
